A study of Mus musculus with 2 samples.

Results

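Receptors and ligands of fibroblast growth factor (FGF) signalling were examined in hair follicles of mice that carry a transgene labelled dnFGFR2-IIIb and in follicles of wild-type mice. The genes were the receptors Fgfr1, Fgfr2, Fgfr3 and Fgfrl1, the ligands Fgf5, Fgf7, Fgf10, Fgf18 and Fgf22, and the adaptor Frs2, chosen by their gene symbol in the array annotation. Of these 10 genes, 9 had probe sets under their symbol, 18 probe sets in all, out of 18193 named genes and 45037 probe sets that are not controls. Frs2 had none under its symbol and was not analysed here.

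The data were 1 Affymetrix Mouse430_2 expression array per group. Total RNA came from a pool of about 300 hair follicles, with about 100 from each of 3 mice of independent litters, at postnatal day 10. The promoter that drives the transgene, the strain, the sex of the mice and the meaning of the prefix dn were not given in the sources used here. With a single array per group and pooled mice there is no replicate spread, so no test was made and every ratio describes these 2 pools. In bulk follicles, fewer cells of a type and less RNA per cell cannot be told apart.

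FGF ligands bind receptor tyrosine kinases at the cell surface together with heparan sulfate. Alternative splicing of the region that encodes the third immunoglobulin-like loop gives each of FGFR1, FGFR2 and FGFR3 a IIIb form, typical of epithelia, and a IIIc form, typical of mesenchyme. FGFR2-IIIb is the main receptor for FGF7, FGF10 and FGF22, and in skin it receives signals that mesenchymal cells such as the dermal papilla send to the epithelium.

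Fgfr2 read higher in transgenic follicles at both of its probe sets that gave a signal, by 1.87-fold and 1.41-fold. Fgf5 and Fgfrl1 also read higher at one probe set each and close to equal at the other, where the sign turned with equal array medians. Fgfr3 read lower at both of its probe sets, with the dimmer one turning to 0.01 on the log2 scale when the arrays were set to equal spiked controls. Fgf22 was near equal, the probe sets of Fgfr1 went opposite ways, and Fgf7, Fgf10 and Fgf18 were at the limit of detection.

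The floor was a signal of 10.5, the 40th percentile of both arrays, and a probe set was called measured when both of its signals exceeded it. The 27 control probe sets for Bacillus subtilis genes reached 15.8 on the array of transgenic follicles and 8.50 on that of wild-type follicles, so values around the floor are near background. Of the 18 probe sets, 13 were measured, and they belonged to 6 genes. Among these 13, 0 read higher in transgenic follicles by 2-fold or more and 1 read lower by 2-fold or more. Over all 23511 measured probe sets, 2.45% passed 2-fold as higher and 1.62% as lower. The median log2 ratio of transgenic over wild type was 0.07 for the 13 probe sets and 0.03 for all of them, so that as a group these genes lay close to the bulk of the arrays. A ratio above 1 was found in 8 of the 13, against 53.3% of all.

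**Figure D1:**
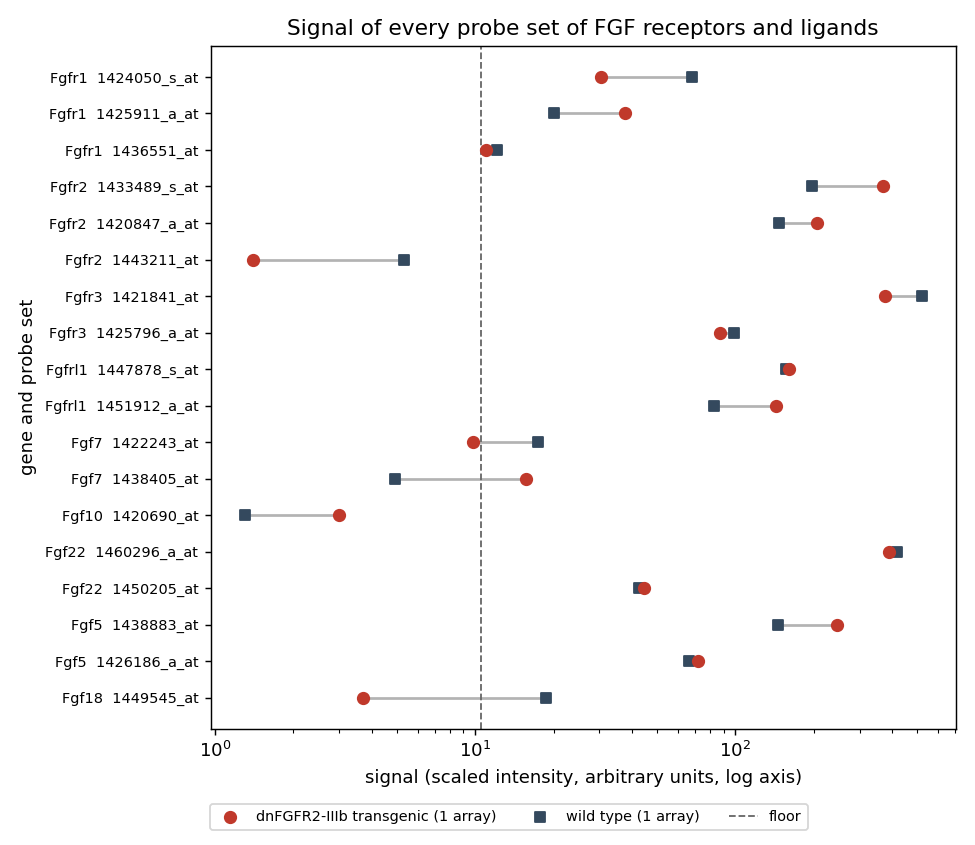
Signal of all 18 probe sets on the transgenic array (red circles) and the wild-type array (dark squares), in scaled intensity on a log axis, with the floor of 10.5 as a dashed line. Fgfr2 and Fgf5 lie to the right of their wild-type values at each probe set above the floor, Fgfr3 to the left, and Fgf10 lies under the floor on both arrays.

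Single differences were read against the arrays' own technical spread. The measured probe sets were split into tertiles by mean log2 signal, dim up to a signal of 38.7, bright above 157 and middle between them. Within a tertile, probe sets that read the same gene differed in log2 ratio with an SD of 0.55 (dim), 0.37 (middle) and 0.19 (bright). Differences of 2-fold or more in either direction made up 8.57% of the dim, 3.0% of the middle and 0.638% of the bright tertile. This spread leaves out differences between mice.

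The promoter windows of Fgfr2, Fgf5 and Fgfr3 are shown because these genes read to 1 side at each measured probe set, the first pair higher and Fgfr3 lower, and by over 1 bright-tertile SD at their brighter probe set. The sequences are from RefSeq (GRCm38.p6) and run 5′ to 3′ on the gene's strand, from 250 bases before to 50 bases after the annotated start. Capitals mark matches on either strand to 4 motifs, which do not overlap here. The TATA box was searched as the letters TATAAA, the GC box was searched as the letters GGGCGG, and the CCAAT box by the letters of its name. The ETS core, which is bound by ETS factors that act at the end of FGF signalling, was searched as the letters GGAAGT. The window of Fgfr2 is chr7:130266759-130267058 on the minus strand, that of Fgf5 is chr5:98253934-98254233 on the plus strand, and the first of the Fgfr3 windows is chr5:33721474-33721773 on the plus strand.
Fgfr2: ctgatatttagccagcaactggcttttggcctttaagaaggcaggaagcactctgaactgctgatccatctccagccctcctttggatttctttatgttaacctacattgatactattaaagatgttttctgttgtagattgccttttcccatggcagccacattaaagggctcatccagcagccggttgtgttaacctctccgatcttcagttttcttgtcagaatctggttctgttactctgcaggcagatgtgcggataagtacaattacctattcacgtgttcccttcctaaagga
Fgf5: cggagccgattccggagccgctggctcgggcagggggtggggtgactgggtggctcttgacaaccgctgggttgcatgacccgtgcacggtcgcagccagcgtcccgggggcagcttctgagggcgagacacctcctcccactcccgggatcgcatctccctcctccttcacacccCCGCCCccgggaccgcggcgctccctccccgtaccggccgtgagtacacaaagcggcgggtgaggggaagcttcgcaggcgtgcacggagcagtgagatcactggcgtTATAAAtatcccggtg
Fgfr3: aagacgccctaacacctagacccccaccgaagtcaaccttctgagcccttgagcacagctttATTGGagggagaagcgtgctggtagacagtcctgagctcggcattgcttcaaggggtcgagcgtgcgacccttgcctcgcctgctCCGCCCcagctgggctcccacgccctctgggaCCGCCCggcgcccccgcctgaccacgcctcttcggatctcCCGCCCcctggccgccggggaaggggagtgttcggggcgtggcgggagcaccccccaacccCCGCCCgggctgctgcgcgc
The Fgfr2 window held 0 matches to these motifs. The Fgf5 window held 1 GC box and 1 TATA box, which begins at base 35 when the annotated start is base 1. The Fgfr3 window held 4 GC boxes and 1 CCAAT box. Of all 32851 windows in the RefSeq table, 35.7% held a GC box, 37.4% a CCAAT box, 13.6% a TATA box and 23.8% the ETS core. Among the 9 genes of this group with a window, Frs2 included, 7 had a GC box, 4 a CCAAT box, 1 a TATA box and 2, Fgfrl1 and Frs2, the ETS core. The arrays do not measure binding at these windows, and a match is a description of the letters.

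Fgfr2, the receptor from which the transgene takes its name, was read by 3 probe sets. At 1433489_s_at it read 368 in transgenic and 197 in wild-type follicles, a 1.87-fold higher signal with a log2 ratio of 0.90. In the bright tertile 0.868% of probe sets had a larger difference in either direction. At 1420847_a_at it read 206 in transgenic and 147 in wild-type follicles, 1.41-fold higher with a log2 ratio of 0.49, and 6.16% of the tertile differed by more. Both probe sets thus read higher in the transgenic pool by more than the bright-tertile SD of 0.19, and neither reached 2-fold. The remaining probe set, 1443211_at, read 1.40 and 5.30 in transgenic and wild-type follicles, under the floor on both arrays. Whether these probe sets match the transgene, the endogenous Fgfr2 RNA or both was not tested, so they do not check the labels. None is annotated as specific to the IIIb or the IIIc form.

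Fgfr3, a receptor best known as a brake on bone growth and also found in hair follicle epithelium, went the other way. It read 377 in transgenic and 520 in wild-type follicles at 1421841_at, a 1.38-fold lower signal with a log2 ratio of -0.46. In the bright tertile 7.36% of probe sets differed by more, a share close to that of the dimmer measured Fgfr2 probe set. At 1425796_a_at it read 87.1 in transgenic and 98.8 in wild-type follicles, a log2 ratio of -0.18, within the middle-tertile SD of 0.37. With the arrays set to equal spiked controls the values were -0.27 and 0.01, so that the sign at the dimmer probe set depended on the scaling.

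Fgfrl1 encodes a receptor-like protein that binds FGFs but lacks a tyrosine kinase domain. Its probe set 1451912_a_at read 143 in transgenic and 82.6 in wild-type follicles, 1.73-fold higher with a log2 ratio of 0.79. The other, 1447878_s_at, read 160 in transgenic and 156 in wild-type follicles, a log2 ratio of 0.04, which turned to -0.11 with equal medians. The difference of 0.76 between the probe sets was exceeded by 24.7% of the 5253 genes with more than 1 measured probe set. The higher reading of Fgfrl1 thus rested on 1 of its probe sets.

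Fgfr1, a receptor prominent in mesenchyme in its IIIc form, had the only probe set of the group past 2-fold. At 1424050_s_at it read 30.3 in transgenic and 67.9 in wild-type follicles, 2.24-fold lower, or -1.16 as a log2 ratio. With equal spiked controls this value was -0.97, short of 2-fold, while Fgfr2 at 1433489_s_at and Fgfr1 at 1425911_a_at reached log2 ratios of 1.09 and 1.10. At 1425911_a_at it read 37.7 in transgenic and 20.1 in wild-type follicles, 1.88-fold higher with a log2 ratio of 0.91. The third, 1436551_at, read 11.0 and 12.1 in transgenic and wild-type follicles, at the floor, with a log2 ratio of -0.14. The probe sets therefore gave no common direction for Fgfr1, whichever of these scalings was used. Their log2 ratios differed by 2.07, and 0.438% of the 5253 genes with several measured probe sets differed by more. The mean log2 ratio over the 3 probe sets was -0.13. Of these genes, 52.5% had probe sets going both ways, as did Fgfr1 and Fgf22 among the 6 measured here.

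**Figure D2:**
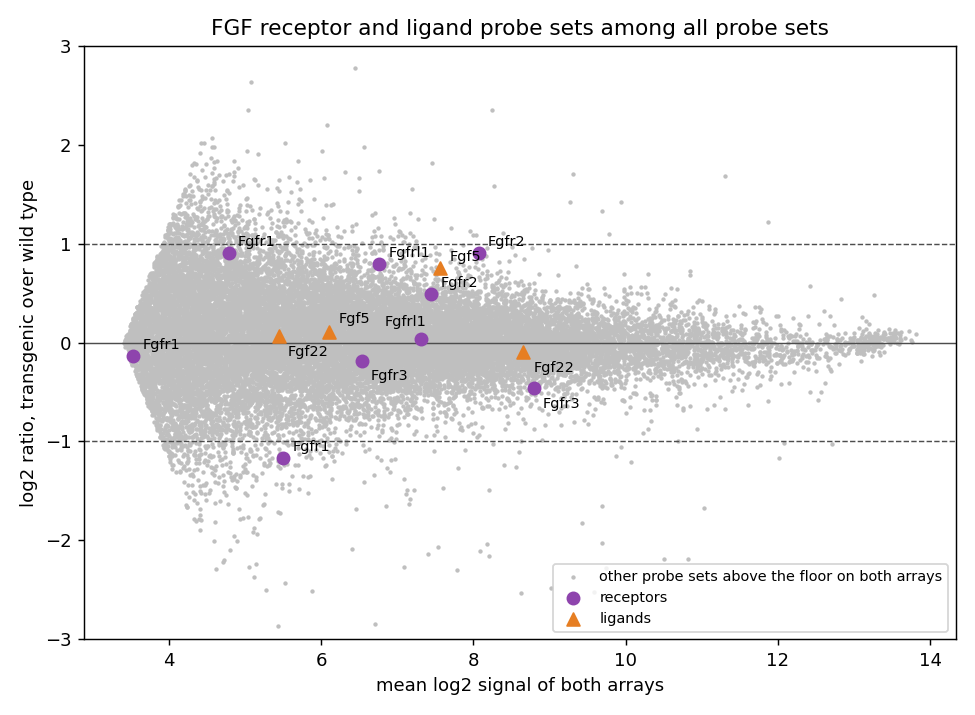
Log2 ratio of transgenic over wild type against the mean log2 signal for measured probe sets, with receptors as purple circles, ligands as orange triangles and all others in grey. Dashed lines mark 2-fold, 8 probe sets lie outside the plotted range, and 1 Fgfr1 probe set at -1.16 is the only labelled point past a dashed line.

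Among the ligands of FGFR2-IIIb, Fgf22 gave a signal well above the floor. FGF22 is a relative of FGF7 and FGF10 that is made in the inner root sheath of the mouse hair follicle. It read 389 in transgenic and 416 in wild-type follicles at 1460296_a_at, a log2 ratio of -0.10. At 1450205_at it read 44.4 in transgenic and 42.4 in wild-type follicles, a log2 ratio of 0.07. Both values lay within the spread between probe sets, and 65.0% and 86.9% of probe sets in their tertiles differed by more. The 5 inner root sheath markers summed to 38527 in transgenic and 37778 in wild-type follicles, and their median log2 ratio was 0.01.

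Fgf7, also called keratinocyte growth factor, and Fgf10 are ligands that mesenchymal cells, dermal papilla included, make for the epithelium. Fgf7 read 9.80 in transgenic and 17.4 in wild-type follicles at 1422243_at, at least 1.66-fold lower. At 1438405_at it read 15.7 in transgenic and 4.90 in wild-type follicles, at least 1.49-fold higher. The probe sets crossed the floor in opposite directions, and each reached no further than 17.4. Over all probe sets, 9.11% were above the floor in transgenic follicles alone and 6.47% in wild-type follicles alone. Fgf10 read 3.00 in transgenic and 1.30 in wild-type follicles at its probe set, under the floor on both arrays, so that no ratio is given and a difference was not detectable.

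Markers of mesenchyme were set beside Fgfr1, Fgf7 and Fgf10. Of 13 listed dermal papilla markers, 12 had a probe set, and the 12 summed to 406 in transgenic and 400 in wild-type follicles. Of them 9 exceeded the floor on both arrays, 7 with a ratio above 1, or 3 of 9 with equal medians. At the brightest probe set of each gene, Rspo3 was farthest out, at 34.9 in transgenic and 14.7 in wild-type follicles, or 1.25 as a log2 ratio. Alpl was next and went the other way, at 26.9 and 45.5, a log2 ratio of -0.76. The dermal papilla markers Sox2 and Tbx18 were under the floor on both arrays, and Sox18 read 6.90 in transgenic and 26.2 in wild-type follicles, above it in the wild type alone. All 6 dermal fibroblast markers exceeded the floor, 4 with a ratio above 1 and 2 under 1. They summed to 2916 in transgenic and 2098 in wild-type follicles, with Dcn alone at 1590 and 985. Lum, at 11.2 and 14.1, and Pdgfra, at 46.4 and 51.6, went the other way. The part of these mesenchyme markers in the readings of Fgfr1, Fgf7 and Fgf10 was not tested.

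Fgf5 is the ligand that brings hair growth to an end, and mice without it have long, angora-type hair. At 1438883_at it read 246 in transgenic and 146 in wild-type follicles, 1.69-fold higher with a log2 ratio of 0.75. In the bright tertile 1.56% of probe sets differed by more. At 1426186_a_at it read 71.5 in transgenic and 66.3 in wild-type follicles, a log2 ratio of 0.11, which turned to -0.03 with equal medians. The difference in Fgf5 exceeded the spread between probe sets at 1 of the pair. Of 9 markers of the outer root sheath, where Fgf5 is made, and of the basal layer, 8 had a ratio under 1. The median log2 ratio of the 9 was -0.21, which became -0.01 with equal spiked controls. Their summed signals were 12193 in transgenic and 14491 in wild-type follicles, and their part in the reading of Fgf5 was not tested.

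Fgf18, a ligand linked to the resting phase of the hair cycle, read 3.70 in transgenic and 18.7 in wild-type follicles. It was thus above the floor in wild-type follicles alone, and at least 1.78-fold lower in the transgenic pool. The bacterial controls reached 8.50 on the array that read 18.7, and 15.8 on the transgenic array.

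**Figure D3:**
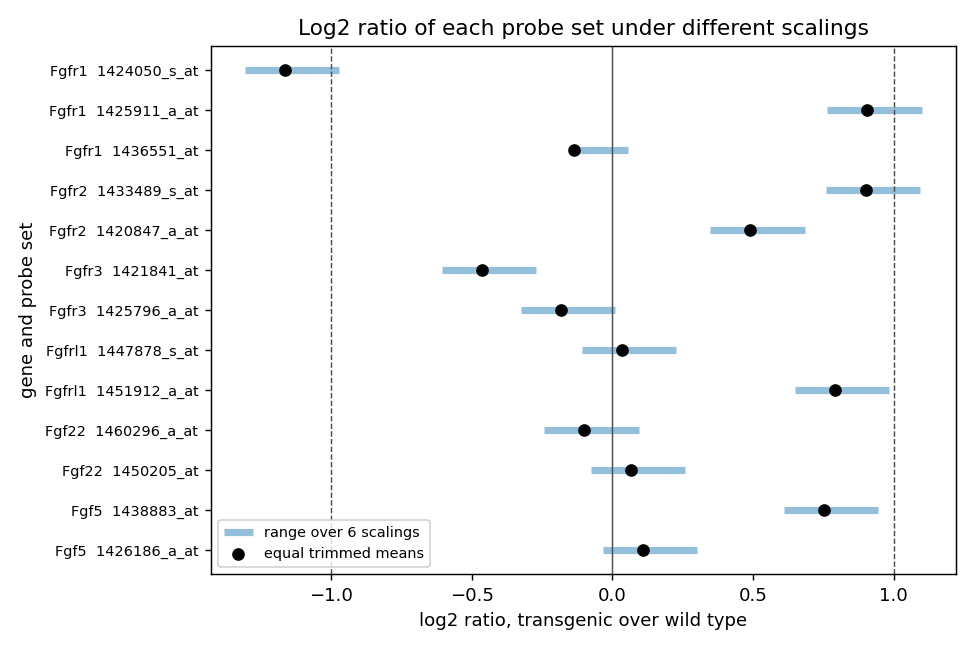
Log2 ratio of the 13 measured probe sets with equal trimmed means (black points) and the range over 6 scalings (blue bars). The Fgfr2 bars span 0.35 to 0.68 and 0.76 to 1.09 and stay right of 0, while the bars of Fgf22, of Fgfr1 1436551_at, of Fgfrl1 1447878_s_at and of the dimmer Fgf5 and Fgfr3 probe sets cross it. The bar of Fgfr1 1436551_at covers the scalings that left it above the floor on both arrays.

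Other genes of FGF signalling were compared as 6 lists, with the brightest probe set of each gene. Of 97 listed genes 90 had a probe set under their symbol, and 70 were measured, of which 1 passed 2-fold as higher and 2 as lower. Over all 11565 genes measured in this way, 1.6% passed 2-fold as higher and 1.58% as lower. The median log2 ratio of the 70 genes was 0.01 and that of all genes was 0.00. Equal medians and equal spiked controls shift all ratios down or up together, and the signs of the list medians below depended on the scaling except where given.

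Of the 17 other ligands, 7 were under the floor on both arrays, 5 exceeded it in transgenic follicles alone and 1 in wild-type follicles alone. Over all probe sets, 9.11% exceeded it in transgenic follicles alone and 6.47% in wild-type follicles alone. The highest of the 5 was Fgf4 at 17.8, on the array where the bacterial controls reached 15.8. The remaining 4 ligands exceeded the floor on both arrays, with log2 ratios at the brightest probe set from -0.19 for Fgf6 to 0.17 for Fgf17. Fgf1 and Fgf3 read -0.11 and -0.16 there, but 0.79 and 0.58 at another measured probe set. Fgfr4, the remaining receptor of the family and chosen after its values were seen, read 7.90 in transgenic and 22.9 in wild-type follicles, at least 2.18-fold lower and near background. The 5 measured co-receptors and receptor-binding proteins all had a ratio above 1 (3 of 5 with equal medians), and their median log2 ratio of 0.17 was 0.03 with equal medians and 0.36 with equal spiked controls, above 0 in each case. At the brightest probe sets, Flrt1, a membrane protein that binds FGF receptors, was farthest out. It read 68.6 in transgenic and 42.9 in wild-type follicles, a log2 ratio of 0.68, with 1.07 at its other probe set. The neuropilin Nrp1 was next at 0.30, and its other probe sets ran from -0.55 to 0.35. Flrt2 read 0.17 at its brightest probe set and up to 0.99 at another.

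Genes of heparan sulfate and of FGF binding proteins had 21 measured members, 9 with a ratio above 1 and 12 under 1, and a median log2 ratio of -0.10, which was 0.09 with equal spiked controls. The lowest ratios were those of enzymes that sulfate heparan sulfate chains. Hs6st1 read 31.9 in transgenic and 64.2 in wild-type follicles, a log2 ratio of -1.01, and Hs3st1 read 56.7 in transgenic and 113 in wild-type follicles, a log2 ratio of -0.99. Each was read by a single probe set.

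Adaptors and relays between the receptor and the kinase cascade had 21 measured members, 0 of them 2-fold apart at the brightest probe set. Their median log2 ratio was 0.06, which was -0.08 with equal medians. Further measured probe sets of these genes ran from -1.05 for Pik3ca, which read 0.31 at its brightest, to 0.85 for Braf. The exchange factor Sos2 read 69.6 in transgenic and 108 in wild-type follicles, a log2 ratio of -0.63. Frs3, the relative of Frs2, read 19.6 in transgenic and 14.8 in wild-type follicles, a log2 ratio of 0.40 within the dim-tertile SD. Regulators of the choice between the IIIb and IIIc forms had 7 of 7 genes measured and a median of 0.06 at the brightest probe set of each, or -0.08 with equal medians. Other probe sets of these genes lay farther out, down to -1.63 for Ptbp1, which read -0.02 at its brightest, down to -0.51 for Rbfox2 and up to 0.61 for Tia1. At the brightest probe sets the largest log2 ratio was that of Tia1, at 0.35, and Esrp1, which promotes the IIIb form in epithelia, read 1722 in transgenic and 1503 in wild-type follicles, a log2 ratio of 0.20.

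Feedback inhibitors and ETS targets of the pathway had 12 measured members, 8 of them with a ratio under 1, and a median log2 ratio of -0.16, which was 0.03 with equal spiked controls. The phosphatase gene Dusp5 read 88.7 in transgenic and 249 in wild-type follicles (log2 ratio -1.49) at its only probe set. Its relative Dusp7 read 177 in transgenic and 85.7 in wild-type follicles (log2 ratio 1.04), with 0.42 and 0.64 at its other probe sets.

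**Figure D4:**
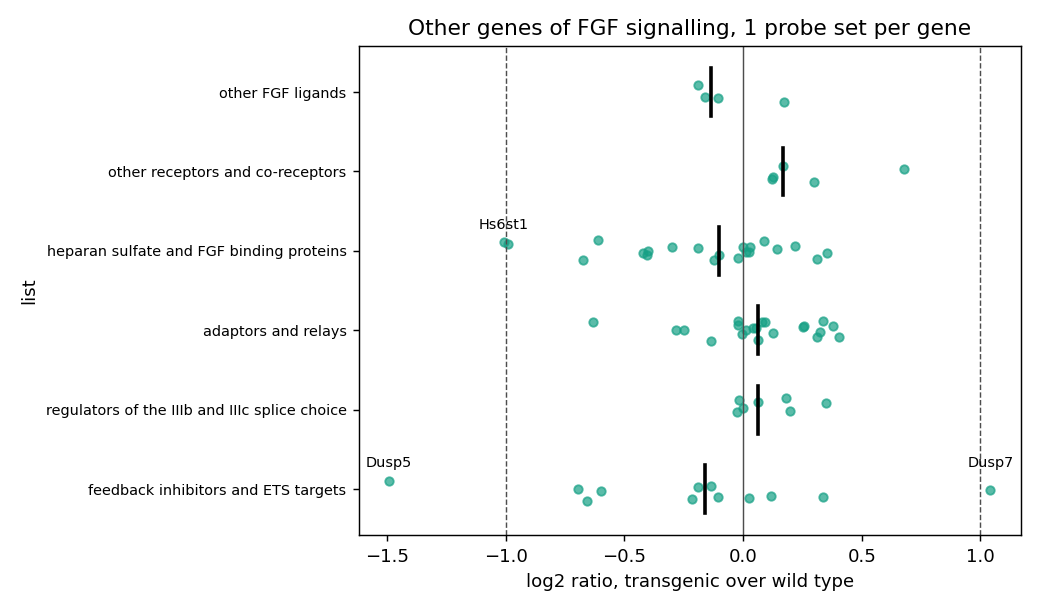
Log2 ratio of transgenic over wild type for the 70 other FGF signalling genes above the floor on both arrays, 1 point per gene, by list, with the list median as a black bar. Dashed lines mark 2-fold; Dusp5, Hs6st1 and Dusp7 lie past them, and list medians lie between -0.16 and 0.17.

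The labelled tissue was checked against its markers. All 5 inner root sheath markers and all 7 matrix and hair shaft markers with a probe set exceeded the floor on both arrays, among them Foxn1 at 775 in transgenic and 759 in wild-type follicles. The 7 matrix and hair shaft markers all had a ratio above 1, or 4 of 7 with equal medians. Their log2 ratios ran from 0.02 for Msx2 to 0.38 for Shh, with a median of 0.23, or 0.08 with equal medians. Signals of sex-linked genes differed, with Xist at 1146 in transgenic and 352 in wild-type follicles, and Eif2s3y under the floor in transgenic follicles and at 191 in wild-type follicles. Kdm5d (8.60 in transgenic and 55.3 in wild-type follicles) and Uty (4.80 and 31.3) were also under the floor in transgenic follicles alone. With 1 array per group, a difference in the sex of the pooled mice cannot be told apart from the transgene in any ratio given here. Immune markers summed to 128 in transgenic and 48.8 in wild-type follicles, and 2 of the 5 exceeded the floor on both arrays. Skeletal muscle markers summed to 63.6 and 19.9, and 0 of the 4 exceeded it on both arrays. Both sums thus include values under the floor. The 3 adipocyte markers with a probe set split, with Fabp4 at 5108 and 7211, Adipoq at 65.3 and 139, and Lep at 26.7 and 4.60. Markers of the interfollicular epidermis also split, summing to 1106 in transgenic and 3358 in wild-type follicles. Among them Ivl read 683 in transgenic and 3110 in wild-type follicles, with log2 ratios of -2.19 and -2.07 at its probe sets, and Krt77 read 63.8 in transgenic and 16.6 in wild-type follicles. Of 4 endothelial markers, Cdh5 read 42.3 in transgenic and 13.7 in wild-type follicles, while Tek read 31.5 and 35.4, the other way. Kdr, at 14.8 and 5.60, exceeded the floor in transgenic follicles alone, and Pecam1 was under it on both arrays. The ratio of 3′ to 5′ signal of beta-actin was 2.06 in transgenic and 1.89 in wild-type follicles, and that of Gapdh was 0.85 and 0.80. The part of these differences in the readings of the FGF genes was not tested.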

How the data were processed

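The deposited values are 1 linear intensity per probe set and array, which the authors had scaled to a 2% trimmed mean of about 100 over all probe sets, as the values show. Total RNA was isolated with Trizol, per the labels' protocols. The summary algorithm is not given in the sources used here. Of 45101 probe sets, 64 controls were left out. Both columns were set to the same 2% trimmed mean over the remaining 45037, and values under the floor were set to it. A ratio with 1 signal under the floor is a bound, and with both under it no ratio is given. In the platform annotation, 34945 probe sets had 1 gene symbol, 932 several and 9160 none, and names were checked by gene identifier against RefSeq (GRCm38.p6). The values carry no genome coordinates. Global scaling makes every ratio relative to the bulk of the transcripts, and precision is limited by the number of arrays.

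Named in the text were every probe set of the group and, from each further list of FGF signalling genes, genes past 2-fold and the pair with the largest absolute log2 ratios. Sex-linked genes were named besides, and other marker genes were picked with their values known. The genes, lists and settings were chosen with earlier results of these data known. No test was made with 1 array per group. The calculations used Python 3.11.15 with pandas 2.3.3, scipy 1.17.1 and statsmodels 0.14.6 and were tested on simulated data. Alternatives were other scalings (equal medians, none, equal spiked controls, quantile, loess with a span of 0.3), other floors, a pseudocount, other thresholds, omitting probe sets of more than one possible target, and summaries per gene.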

Additional observations from a re-analysis of the deposited data

How the results depend on the processing

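Of 131 log2 ratios of single probe sets recomputed under alternatives, 125 moved by less than the spread between probe sets. The other 6 moved by more with equal spiked controls, and 8 of the 131 differed in sign. Other floors, no floor and leaving out _s_at and _x_at probe sets cannot change the ratio of a measured probe set. The count of 125 was thus in part fixed in advance, and only the scalings and the pseudocount could move a ratio. Only a scaling could change a sign, and the sign was the same under all 6 scalings for 7 of 13 probe sets. They were those of Fgfr2, the brighter ones of Fgf5 and Fgfr3, 1451912_a_at of Fgfrl1, and both Fgfr1 probe sets that differed most. Against the main counts of 0 higher and 1 lower probe set of FGF receptors and ligands, there were 2 higher and 0 lower of 13 with equal spiked controls (4.42% and 0.95% of all measured probe sets), 1 and 2 of 16 with the floor at the 20th percentile (7.86% and 5.62% of all), 2 and 3 of 18 with no floor (17.1% and 14.5% of all), and 4 higher of 13 at a threshold of 1.5-fold (9.9% of all). The lower count was 0 with a floor of 50, a pseudocount, a 3-fold threshold, no _s_at or _x_at probe sets, or averaging all measured probe sets of a gene. Against 1 higher and 2 lower other FGF signalling genes, the higher count was 0 with equal medians, a pseudocount, a 3-fold threshold, no _s_at or _x_at probe sets, or the mean over probe sets, and 5, 10 and 2 with the floor at the 20th percentile, no floor and 1.5-fold. The lower count was 1 with equal spiked controls, a floor of 50 or a pseudocount, and 0 at 3-fold. It was 3 with equal medians, quantile or loess scaling, where 2.5%, 2.09% and 2.14% of all measured probe sets passed as lower. With the floor at the 20th percentile, no floor and 1.5-fold it was 4, 8 and 9. Of all measured probe sets, 7.86% passed as higher and 5.62% as lower with that floor. The shares were 17.1% and 14.5% with no floor, and 9.9% and 6.97% at 1.5-fold. Looser thresholds and floors let in more probe sets by construction, and otherwise the cause was not tested. Equal spiked controls moved the median log2 ratio of all probe sets to 0.21 and equal medians to -0.11, from 0.03. No paired analysis was possible because each group has 1 array.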
